A study of Mus musculus with 9 samples.

Results

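The matrix metalloproteinases (MMPs), the ADAMTS and ADAMTS-like (ADAMTSL) genes and the tissue inhibitors of metalloproteinases (TIMPs) were taken from the count table of mouse ovaries by their symbols. The symbols Mmp, Adamts and Adamtsl followed by a number, and Timp1 to Timp4, matched 52 of the rows. Mmp27 was listed in 2 rows, of which the one with more counts was kept, so that 51 of 46078 genes were described. They comprised 23 Mmp, 19 Adamts, 5 Adamtsl and 4 Timp genes, and none was chosen by its measured level or difference.

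MMPs are zinc-dependent endopeptidases, secreted or held at the cell membrane, that are made as inactive precursors and cleave collagens, gelatin and other proteins of the extracellular matrix. ADAMTS proteases are secreted relatives that bind to the matrix and cleave proteoglycans, procollagens or other matrix proteins, while ADAMTSL proteins share their binding domains and lack the protease domain. TIMPs bind to the active site of these enzymes and block it. In the ovary, remodelling of the matrix by such enzymes accompanies follicle growth, rupture of the follicle wall at ovulation, and the formation and regression of the corpus luteum.

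RNA-seq was performed on whole ovaries of 5 WT and 4 ERβKO mice of the C57BL/6J strain, with 1 library per mouse. The ERβKO line carries a deletion of an exon of Esr2, the gene encoding estrogen receptor beta (ERβ), made in the germline by crossing floxed Esr2 mice with a Cre deleter driven by Rosa26, so that every cell of the body carries the deletion. The WT mice were offspring without Cre and with an intact Esr2. All 9 samples are labelled as untreated, although the protocol given with them also describes diets and injections without assigning them to a sample. Neither the age nor the stage of the estrous cycle is given for single mice. The genotypes were compared to ask which ovarian transcripts depend on ERβ.

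Between 12353740 and 18717510 fragments were counted per library, of which the 51 genes took 0.172 to 0.220%. Esr2, counted over its whole length including the exons left in the knockout allele, lay between 12.4 and 23.9 FPKM (mapped fragments scaled to the length of the gene and the size of the library) in WT and between 10.5 and 23.7 FPKM in ERβKO ovaries, so it did not separate the genotypes here. A principal component analysis of the log2 counts placed WT replicate 2 (9.43 on the first component, with 35.9% of the variance) between the other WT (-43.8 to -15.6) and the ERβKO ovaries (19.4 to 35.4). The 10 luteal markers summed to 1833 to 3838 FPKM in WT and 1040 to 2555 FPKM in ERβKO ovaries, the 10 granulosa markers to 877 to 1110 and 1181 to 1530.2 FPKM, the 7 theca markers to 607 to 816 and 858 to 1915 FPKM, and the 7 adipocyte markers to 137 to 262 and 157 to 1023 FPKM. The granulosa and theca sums did not overlap between the genotypes, and the luteal and adipocyte sums did. The luteal sums overlapped through ERβKO replicate 3 alone (2555 FPKM), with the other ERβKO ovaries below the WT range. The adipocyte sums overlapped through ERβKO replicate 4 alone (157 FPKM), with the others above it. All 7 adipocyte markers had a log2 fold change (ERβKO over WT) above 0, with a median of 1.36. The higher theca sum in ERβKO ovaries was made up by Aldh1a1 (521 and 1092 FPKM on average in WT and ERβKO ovaries) and Cyp17a1 (48.4 and 246 FPKM), while the median log2 fold change of the 6 tested theca markers was 0.077. The 7 oviduct markers, at 1406 to 2553 FPKM in WT and 1631 to 2103 FPKM in ERβKO ovaries, were present in every library labelled as ovary. In whole tissue, fewer cells of a type and less RNA per cell cannot be told apart, and the part of these markers in the results that follow was not tested.

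Matrix proteinase genes spanned a wide range of levels in the ovary, and a few of them held most of the transcript. By the mean FPKM over the 9 ovaries, 10 genes lay above 10 FPKM, 20 between 1 and 10 FPKM, and 21 below 1 FPKM. Timp2 and Timp3 were the highest, at 59.5 and 58.9 FPKM, followed by Mmp14 (47.3 FPKM), Mmp11 (41.9 FPKM), Timp1 (38.7 FPKM) and Adamts10 (26.0 FPKM). These 6 genes held 65.7% of the summed FPKM of all 51. The 4 inhibitors alone made up 40.6% of that sum on average (34.2 to 47.5% across ovaries), the Mmp genes 37.6%, the Adamts genes 20.3% and the Adamtsl genes 1.43%. At the low end, Mmp1a and Mmp20 were listed at 0 counts in every library.

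**Figure D1:**
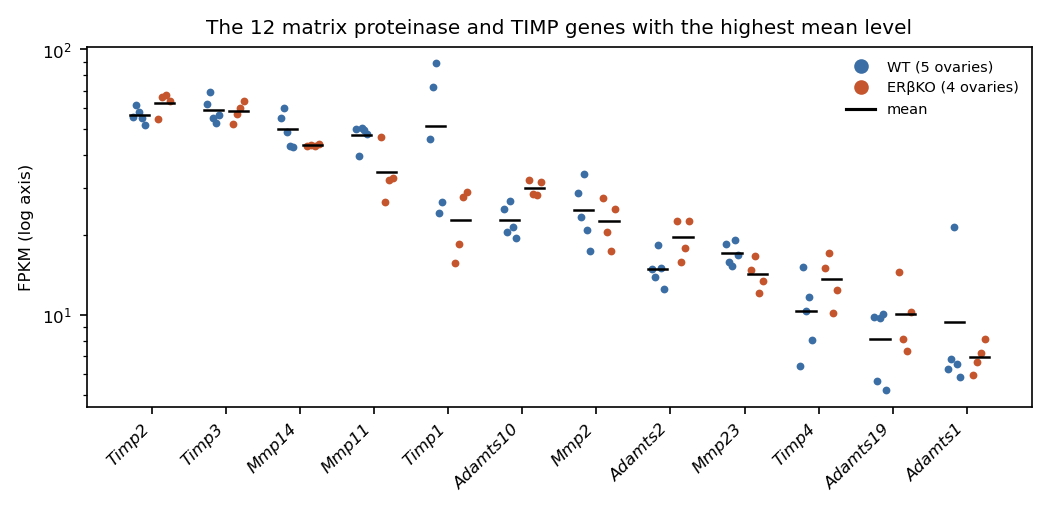
Levels of the 12 proteinase and inhibitor genes with the highest mean, in FPKM on a log axis, with a point per ovary (5 WT, 4 ERβKO) and a line at the mean of each genotype. Timp2 and Timp3 lie close together in all ovaries, while Timp1 runs from 15.8 to 88.7 FPKM and Adamts1 has a single WT ovary at 21.5 FPKM.

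Genotypes were compared over the 42 of the 51 genes that passed the filter on low counts, within a fit of 16722 genes. A gene was called when its Benjamini-Hochberg adjusted p was under 0.05, its absolute log2 fold change over 0.4 and its mean over 1 FPKM in at least 1 genotype. With edgeR's quasi-likelihood test, 0 of the 42 genes were called, while 1.72% of all tested genes were (0.915% higher and 0.801% lower in ERβKO ovaries). The smallest adjusted p was 0.0683, for Adamts10. At an unadjusted p under 0.05, 13 of the 42 genes (31.0%) differed, 7 higher and 6 lower, against 19.8% of all tested genes (9.81% higher and 10.0% lower). With DESeq2 on the same counts, Mmp11 and Adamts6 were called, both lower in ERβKO ovaries, against 4.80% of all tested genes (2.56% lower). The median log2 fold change (ERβKO over WT, as throughout) was 0.0064 for the 42 genes and -0.00089 for all tested genes, and 22 of the 42 (52.4%) lay above 0, against 49.9% of all. Only Timp1 had an absolute log2 fold change over 1. For 29 of the 42 genes the 95% confidence interval included 0, and for 29 it lay within 1 log2 unit of 0.

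**Figure D2:**
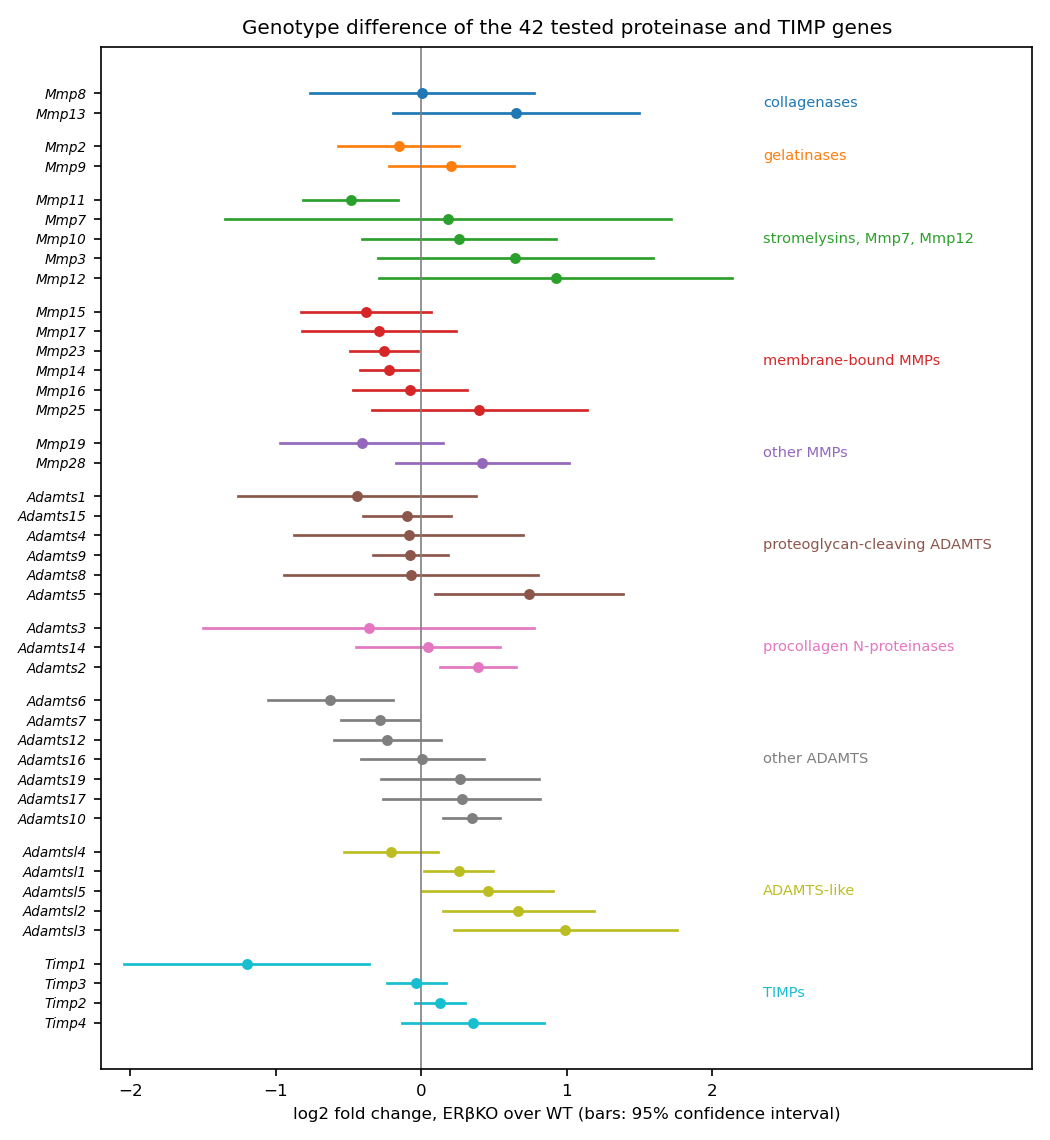
Log2 fold change (ERβKO over WT) of the 42 tested genes by class, with points at the edgeR estimate and bars for the 95% confidence interval. The interval of Timp1 lies furthest below 0 (-2.04 to -0.36), those of Mmp7 and Mmp12 are the widest, and 4 of the 5 ADAMTS-like genes lie above 0.

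FPKM values of the genotypes did not overlap for 4 of the 42 tested genes, against 7.61% of all tested genes. Adamts10, Adamtsl3 and Adamtsl5 were higher in every ERβKO ovary than in every WT ovary (4.29% of all tested genes) and Adamts6 was lower in every ERβKO ovary (3.31%). For each of these 4, the two-sided exact permutation test gave p = 0.0159, the smallest that 5 ovaries against 4 allow. Values without overlap always give this p, so it adds nothing to the separation by which the 4 were picked. Adamtsl3 and Adamtsl5 were singled out after their values were seen, as are Adamts5, Adamts7, Mmp3, Mmp7, Mmp10 and Mmp24 below.

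**Figure D3:**
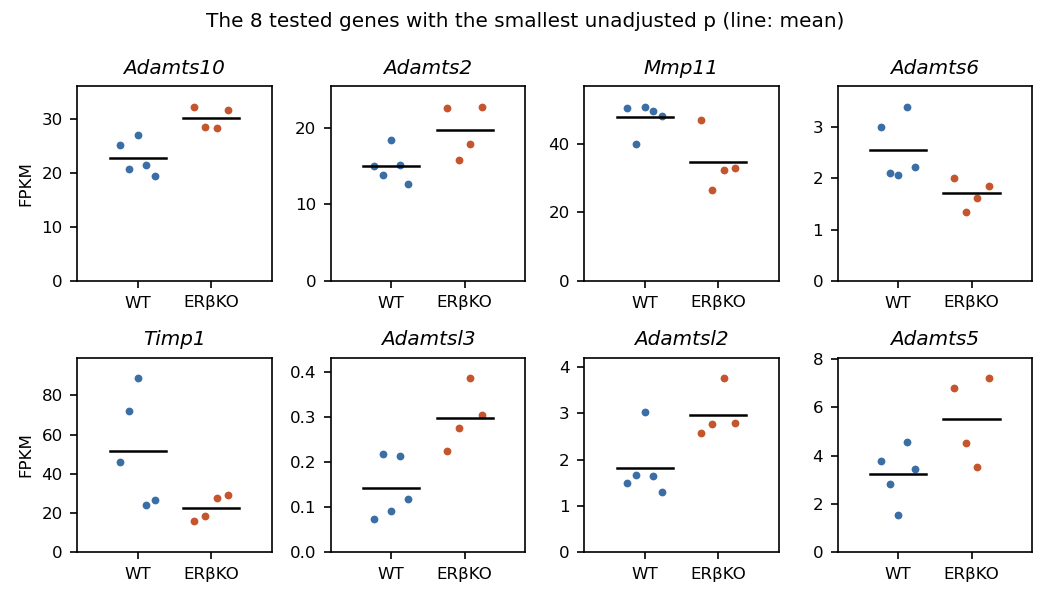
FPKM per ovary of the 8 tested genes with the smallest unadjusted p, each on its own axis from 0, with a line at the mean of the genotype. Adamts10, Adamts6 and Adamtsl3 show no overlap between WT and ERβKO ovaries, while Mmp11 overlaps through ERβKO replicate 1 (46.8 FPKM) and WT replicate 2 (39.8 FPKM), and Timp1 through the 2 lowest WT ovaries (24.2 and 26.7 FPKM).

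The membrane-bound MMPs were led by Mmp14 (chromosome 14 of GRCm38, 54431612 to 54441265), a protease of collagen at the cell surface that also activates the precursor of Mmp2. Mmp14 stood at 55.1, 60.4, 48.8, 43.4 and 43.1 FPKM in the WT ovaries (replicates 1 to 5) and at 43.5, 43.7, 43.4 and 44.2 FPKM in ERβKO replicates 1 to 4. The 4 ERβKO ovaries were nearly equal and lay at the level of the lowest 2 WT ovaries, below the other 3. This gave -0.22 ± 0.091 (SE) on the log2 scale, and edgeR gave it an adjusted p of 0.212. Mmp23, an MMP released from the membrane by cleavage, was found at 17.2 ± 1.7 FPKM across WT and 14.3 ± 2.0 FPKM across ERβKO mice (mean ± SD, n = 5 and 4 here and below), a log2 difference of -0.25 ± 0.11 (SE) with an edgeR adjusted p of 0.220. Of the 6 tested genes of this class, 5 had a log2 fold change below 0 (median -0.24) and 0 were called by edgeR, while 2 of the 6, Mmp14 and Mmp23, had an unadjusted p under 0.05, both lower, against 10.0% of all tested genes in that direction.

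Mmp11 (ENSMUSG00000000901, chromosome 10 of GRCm38, 75923222 to 75932502), also called stromelysin-3 and known from tissues under remodelling, was the second highest Mmp gene. In the WT ovaries it stood at 50.3, 39.8, 50.7, 49.6 and 47.9 FPKM. In the ERβKO ovaries it was 46.8, 26.6, 32.4 and 32.9 FPKM. Of the ERβKO ovaries, 3 lay below every WT ovary, and ERβKO replicate 1 lay among the WT values. On the log2 scale the genotypes differed by -0.49 ± 0.15 (SE), and the adjusted p was 0.114 by edgeR and 0.0325 by DESeq2. In edgeR it was called without WT replicate 2 (log2 fold change -0.55, adjusted p = 0.0471, 5.56% of all genes called) and without ERβKO replicate 1 (-0.65, adjusted p = 0.0305, 1.5% called). Chchd10, annotated on the other strand, shares 5.58% of the exon length, and the sources used here do not state whether reads were counted by strand.

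The gelatinases Mmp2 and Mmp9, which cleave denatured collagen and the type IV collagen of basement membranes, differed by more than 10-fold in level. Mmp2 had levels of 28.9, 23.4, 33.9, 20.9 and 17.4 FPKM in WT and of 27.7, 20.6, 17.5 and 25.0 FPKM in ERβKO ovaries, with overlapping ranges. Its log2 fold change was -0.16 (95% confidence interval -0.57 to 0.26). Mmp9 was measured at 1.72 ± 0.53 FPKM across WT and 1.67 ± 0.39 FPKM across ERβKO mice (mean ± SD), with its highest value, 2.64 FPKM, in WT replicate 1. The fitted log2 fold change of Mmp9 on the counts was 0.21 (95% confidence interval -0.23 to 0.64), and the mean FPKM of the genotypes differed in the other direction.

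Among the remaining MMPs, Mmp19, a secreted protease of basement membrane proteins, stood at 5.52, 5.81, 9.44, 3.33 and 4.01 FPKM in WT and at 5.37, 3.66, 4.26 and 3.93 FPKM in ERβKO ovaries. WT replicate 3 was the highest, and the other ovaries overlapped between the genotypes. In log2 units the difference came to -0.41 ± 0.25 (SE), with an edgeR adjusted p of 0.399. Genes annotated on the other strand share 28.3% of the exon length of Mmp19. Mmp28 lay at 0.651 ± 0.11 FPKM across WT and 0.763 ± 0.24 FPKM across ERβKO mice (mean ± SD), with a log2 fold change of 0.42 (95% confidence interval -0.17 to 1.02), and 12% of its exon length lies under a gene on the opposite strand. Mmp24, with at most 7 counts in a library, was not tested. It was listed at 0 FPKM in 4 of 5 WT ovaries and 0.214 to 0.507 FPKM in ERβKO ovaries, whereas its counts of 5, 3, 2, 2 and 0 in WT and 7, 6, 5 and 7 in ERβKO ovaries met at 5.

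Of the 23 Mmp genes, 10 lie together on chromosome 9 of GRCm38 between positions 7272514 and 7699585, a stretch of 427 kb. They comprise the collagenases Mmp1a, Mmp1b, Mmp8 and Mmp13, the stromelysins Mmp3 and Mmp10, the matrilysin Mmp7, the macrophage elastase Mmp12, the enamel protease Mmp20, and Mmp27. All were low in the ovary: their mean FPKM ran from 0 to 3.71 with a median of 0.544, while the 13 Mmp genes elsewhere ran from 0 to 47.3 FPKM with a median of 1.70. The 10 genes together summed to 11.7 FPKM, against 143.6 FPKM for the other 13.

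**Figure D4:**
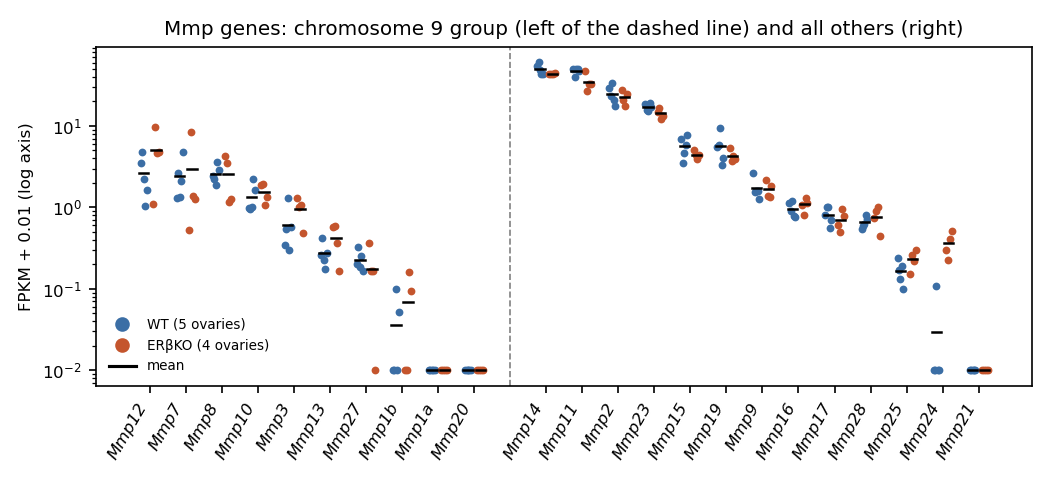
FPKM plus 0.01 per ovary, on a log axis, of the 10 Mmp genes of the chromosome 9 group (left of the dashed line) and of the 13 others (right), each ordered by mean, with lines at the genotype means. No gene of the group has a mean above 3.71 FPKM, while Mmp14 and Mmp11 reach 47.3 and 41.9 FPKM.

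The starts of these genes are shown because motifs in them were found at other frequencies than in the other genes described here that had a window. RefSeq promoter windows (GRCm38.p6) were used for 36 of the 51 genes, and the 250 bases before each start were searched. All 10 genes of the group had a window. The genes without one, which were not searched, include Mmp2, Mmp9, Mmp19, Adamts5, Adamts6 and Adamts10. The AP-1 motif, searched as TGANTCA after the sites bound by Fos and Jun proteins, was found on either strand in 8 of the 10 genes of the group. It was found in 0 of the 26 other genes and in 7.82% of all 27025 genes with a window. The match of Mmp20 reads TGAATCA, while the others read TGAGTCA or TGACTCA. That of Mmp12 lies only in a window inside the gene (chr9:7347124-7347373), and the window at the start of Mmp12 has none. The TATA box TATAAA, searched on the gene's strand, was found in 7 of the 10, 3 of the 26 and 8.94% of all genes. The GC box GGGCGG, on either strand, was found in 0 of the 10, 20 of the 26 and 35.4% of all genes. The half-site of the estrogen response element, GGTCA on either strand, was found in 5 of the 10, 5 of the 26 and 38.4% of all genes. A match describes these letters in this window and is not a binding site. In the group, Mmp8 and Mmp27 have no AP-1 and no TATA match, and Mmp12 has no TATA match. The last 100 bases before the start follow for 4 genes of the group, taken from those with both matches. AP-1 and TATA matches are in capitals. These stretches lie on the plus strand of chromosome 9 at chr9:7272414-7272513 (Mmp13), chr9:7445722-7445821 (Mmp3), chr9:7502242-7502341 (Mmp10) and chr9:7691990-7692089 (Mmp7, the first of its 2 windows).
Mmp13: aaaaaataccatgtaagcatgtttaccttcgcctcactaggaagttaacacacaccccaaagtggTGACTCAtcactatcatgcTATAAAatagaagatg
Mmp3: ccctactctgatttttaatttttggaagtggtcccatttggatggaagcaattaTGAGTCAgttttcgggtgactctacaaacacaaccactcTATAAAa
Mmp10: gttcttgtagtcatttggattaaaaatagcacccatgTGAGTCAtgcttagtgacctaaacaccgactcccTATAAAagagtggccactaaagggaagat
Mmp7: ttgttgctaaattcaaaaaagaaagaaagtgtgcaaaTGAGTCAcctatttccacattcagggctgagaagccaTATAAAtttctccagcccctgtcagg

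For contrast, the same stretch is given for 4 of the more abundant genes, at chr14:54431498-54431597 (Mmp14, plus strand), chr10:75932503-75932602 (Mmp11, minus strand), chr16:85803114-85803213 (Adamts1, minus strand) and chrX:20870066-20870165 (Timp1, plus strand), of which Adamts1 alone has a capitalised match, a TATA box.
Mmp14: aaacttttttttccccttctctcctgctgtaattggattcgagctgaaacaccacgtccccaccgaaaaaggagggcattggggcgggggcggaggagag
Mmp11: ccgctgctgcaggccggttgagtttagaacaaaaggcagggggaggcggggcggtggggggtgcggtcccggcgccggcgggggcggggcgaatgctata
Adamts1: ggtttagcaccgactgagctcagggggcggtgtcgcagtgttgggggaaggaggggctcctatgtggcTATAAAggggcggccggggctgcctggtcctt
Timp1: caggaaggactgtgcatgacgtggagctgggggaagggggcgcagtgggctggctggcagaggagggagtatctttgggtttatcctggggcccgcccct

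Of the chromosome 9 group, 6 genes were tested, all 6 had a log2 fold change above 0, and 0 were called by edgeR or DESeq2, nor had any an unadjusted p under 0.05 in edgeR. The estimates ran from 0.0051 for Mmp8, whose sign turned in several alternatives, to 0.92 for Mmp12. Mmp12, secreted mainly by macrophages, was found at 3.54, 4.80, 2.25, 1.02 and 1.62 FPKM in WT and at 1.10, 9.71, 4.60 and 4.72 FPKM in ERβKO ovaries. ERβKO replicate 2 held the highest and WT replicate 4 the lowest value, and the ranges overlapped. The log2 fold change had a standard error of 0.55 and an edgeR adjusted p of 0.381. The 7 macrophage markers summed to 196 to 369 FPKM in WT and 240 to 392 FPKM in ERβKO ovaries. The sum was also highest in ERβKO replicate 2, where Lyz2 made up 243 FPKM of it, and lowest in WT replicate 4. With the markers weighted equally on the log2 scale, their mean was highest in WT replicate 1 (6.15, against 6.01 in ERβKO replicate 2). ERβKO replicates 1 and 4 had sums of 255 and 240 FPKM, with Mmp12 at 1.10 and 4.72 FPKM. The part of these markers in the levels of Mmp12 was not tested.

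Mmp7, a small MMP of epithelia, was the most variable of the 42 tested genes, with a standard deviation within genotypes of 1.17 log2 units. It had levels of 1.31, 2.64, 1.32, 2.08 and 4.81 FPKM in WT and of 0.523, 8.52, 1.37 and 1.25 FPKM in ERβKO ovaries. ERβKO replicate 2 alone lay above the WT range, and without it the log2 fold change turned from 0.19 to -1.27. The oviduct markers summed to 2040 FPKM and the surface epithelium markers to 281 FPKM in that ovary, where the oviduct sum lay within and the surface sum above the range of the WT ovaries (180 to 276 FPKM). WT replicate 5, next highest for Mmp7 at 4.81 FPKM, had a surface sum of 186 FPKM. ERβKO replicate 3 had a surface sum of 272 FPKM with Mmp7 at 1.37 FPKM. The part of these markers in the levels of Mmp7 was not tested. Mmp8, a collagenase of neutrophils, was measured at 2.44, 2.25, 1.85, 3.57 and 2.86 FPKM in WT and at 4.23, 3.54, 1.17 and 1.27 FPKM in ERβKO ovaries, of which 1 lay above, 1 within and 2 below the WT values. Of the 7 neutrophil markers, 5 lay under 1 FPKM in every ovary, S100a8 and S100a9 among them, Csf3r lay between 0.626 and 1.77 FPKM, and Ltf, lactoferrin, lay between 85.0 and 205 FPKM. Mmp13, a collagenase of fibrillar collagen, stayed at or below 0.573 FPKM in all ovaries, with a log2 fold change of 0.65 (95% confidence interval -0.20 to 1.5).

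The ADAMTS proteases that cleave proteoglycans such as versican included Adamts1, a gene induced by the ovulatory surge in granulosa cells, and Adamts9. Adamts1 (ENSMUSG00000022893, chromosome 16 of GRCm38, 85793827 to 85803113) stood at 6.29, 6.85, 21.5, 6.54 and 5.87 FPKM in WT replicates 1 to 5. In ERβKO replicates 1 to 4 it was 5.94, 6.65, 7.18 and 8.14 FPKM. WT replicate 3 stood alone above all others, and the other 8 ovaries overlapped. Fitted on the counts, the log2 difference was -0.44 ± 0.37 (SE) with all ovaries and 0.10 without WT replicate 3, with edgeR adjusted p-values of 0.542 and 0.641. WT replicate 3 also held the highest WT values of Timp1, Mmp19, Mmp2 and Adamtsl2. Adamts9 was found at 6.25 ± 1.0 FPKM across WT and 6.00 ± 0.43 FPKM across ERβKO mice (mean ± SD), with a log2 fold change of -0.075 (95% confidence interval -0.33 to 0.18), and 12% of its exon length lies under genes on the opposite strand.

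Adamts5, an aggrecanase whose gene lies next to Adamts1 on chromosome 16, differed from Adamts1 in its pattern over the ovaries. It had levels of 3.77, 2.82, 1.53, 4.57 and 3.46 FPKM in WT and of 6.82, 4.53, 3.53 and 7.2 FPKM in ERβKO ovaries. WT replicate 3, the highest for Adamts1, was the lowest for Adamts5, and ERβKO replicates 1 and 4 lay above every WT ovary. For this gene the log2 fold change reached 0.74 ± 0.29 (SE), with an edgeR adjusted p of 0.197. Of the 6 tested genes of this class, 5 had a log2 fold change below 0 (median -0.082), and Adamts5 was the one above 0.

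Adamts2 and Adamts14 remove the amino-terminal propeptide of fibrillar procollagens. Adamts2 (chromosome 11 of GRCm38, 50602084 to 50807573) was measured at 15.0, 13.9, 18.4, 15.1 and 12.6 FPKM in WT and at 22.5, 15.8, 17.9 and 22.7 FPKM in ERβKO ovaries. ERβKO replicates 1 and 4 were above all WT ovaries, and the other 2 ERβKO ovaries lay below WT replicate 3. The fitted difference was 0.39 ± 0.12 log2 units (SE), with adjusted p-values of 0.110 in edgeR's quasi-likelihood test and 0.0451 in DESeq2, where its change stayed below the limit of 0.4 for a call. Adamts14 was low, at 0.522 ± 0.14 FPKM across WT and 0.563 ± 0.11 FPKM across ERβKO mice (mean ± SD). Its log2 fold change was 0.047 (95% confidence interval -0.45 to 0.54).

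Adamts10 and Adamts6, a pair of closely related proteases, of which Adamts10 is known to bind fibrillin, lay on opposite sides of 0. Adamts10 (ENSMUSG00000024299, chromosome 17 of GRCm38, 33524204 to 33553782) stood at 25.2, 20.6, 26.9, 21.5 and 19.5 FPKM in WT and at 32.2, 28.5, 28.3 and 31.6 FPKM in ERβKO ovaries. Every ERβKO ovary lay above every WT ovary. This gave 0.35 ± 0.087 (SE) on the log2 scale, and the adjusted p was 0.0683 by edgeR and 0.0109 by DESeq2. Without WT replicate 3 the adjusted p was 0.0417 in edgeR, and the log2 fold change, at 0.396, was just under the limit of 0.4 for a call.

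Adamts6 (ENSMUSG00000046169, chromosome 13 of GRCm38, 104287873 to 104494763) was found at 3.00, 2.11, 2.07, 3.39 and 2.21 FPKM in WT and at 2.00, 1.34, 1.62 and 1.85 FPKM in ERβKO ovaries. Every ERβKO ovary lay below every WT ovary, with a narrow gap between WT replicate 3 and ERβKO replicate 1. On the log2 scale the genotypes differed by -0.63 ± 0.19 (SE), and the adjusted p was 0.116 by edgeR and 0.0317 by DESeq2. Adamts19, known as an ovary-expressed member of the family, had levels of 8.12 ± 2.5 FPKM across WT and 10.1 ± 3.3 FPKM across ERβKO mice (mean ± SD), a log2 fold change of 0.27 (95% confidence interval -0.28 to 0.81). Adamts7, a protease of cartilage oligomeric matrix protein, had a log2 difference of -0.28 ± 0.12 (SE), with an edgeR adjusted p of 0.229 and overlapping ranges.

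The ADAMTS-like genes were low, and 4 of the 5 lay above 0, with a median log2 fold change of 0.46. These 4 also had an unadjusted p under 0.05, against 9.81% of all tested genes in that direction, and 0 of the 5 were called by edgeR or DESeq2. Adamtsl2 (chromosome 2 of GRCm38, 27079379 to 27108981), a secreted protein that binds fibrillin and latent TGF-β binding protein, was measured at 1.49, 1.67, 3.03, 1.66 and 1.31 FPKM in WT and at 2.58, 2.78, 3.76 and 2.79 FPKM in ERβKO ovaries. The 4 ERβKO ovaries lay above all WT ovaries other than WT replicate 3. In log2 units the difference came to 0.67 ± 0.23 (SE) with an edgeR adjusted p of 0.154, and without WT replicate 3 it was 0.92 with an adjusted p of 0.0203, which was a call, in a fit that called 2.16% of all genes.

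Adamtsl3 stood at 0.0746, 0.220, 0.0917, 0.215 and 0.118 FPKM in WT and at 0.225, 0.277, 0.387 and 0.305 FPKM in ERβKO ovaries, from 9 to 36 counts in WT and 38 to 53 counts in ERβKO libraries. The ranges were adjacent and did not overlap. Fitted on the counts, the log2 difference was 0.99 ± 0.35 (SE), with an edgeR adjusted p of 0.154, and the mean was under the limit of 1 FPKM for a call in both genotypes. Adamtsl5 was at 0.432 ± 0.12 FPKM across WT and 0.661 ± 0.099 FPKM across ERβKO mice (mean ± SD), a log2 difference of 0.46 ± 0.20 (SE). A narrow gap lay between its highest WT (0.549 FPKM) and its lowest ERβKO value (0.564 FPKM). Its counts, 24 to 50 in WT and 43 to 69 in ERβKO libraries, overlapped. Adamtsl1, the second highest gene of the class, had a log2 difference of 0.26 ± 0.11 (SE) and an edgeR adjusted p of 0.224.

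Of the inhibitors, Timp1 varied most and had the largest estimated difference of the 42 tested genes. Timp1 (ENSMUSG00000001131, chromosome X of GRCm38, 20870166 to 20874735), a secreted inhibitor that is induced in many tissues under remodelling, lies within the gene Syn1 on the opposite strand, whose exons do not overlap its own. Its level was 45.9, 72.0, 88.7, 24.2 and 26.7 FPKM in the WT ovaries and 15.8, 18.5, 27.8 and 29.1 FPKM in the ERβKO ovaries. WT replicates 1 to 3 lay above all ERβKO ovaries, and WT replicates 4 and 5 lay among them. For this gene the log2 fold change reached -1.20 ± 0.38 (SE), and edgeR gave it an adjusted p of 0.123 while the alternatives gave 0.0665 to 0.283. WT replicates 4 and 5 are also the 2 libraries with a number of 200 or above in the labels, whose meaning is not stated, and without them the log2 fold change was -1.60 (edgeR adjusted p = 0.0669). The 7 markers of smooth muscle and pericytes summed to 1061 and 862 FPKM in WT replicates 2 and 3, against 627 to 787 FPKM in the other 7 ovaries. In WT replicate 1, with Timp1 at 45.9 FPKM, the sum was 674 FPKM, within the ERβKO range of 639 to 754 FPKM. Acta2 made up 539 FPKM of the sum in WT replicate 2. In that ovary Rgs5 (16.1 FPKM) and Notch3 (2.21 FPKM) were the lowest of the WT ovaries. The part of these markers in the level of Timp1 was not tested.

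Timp2 and Timp3 were the most abundant of the genes described and among the least variable, with standard deviations within genotypes of 0.12 and 0.14 log2 units against a median of 0.36 over the 42 genes and 0.20 over all tested genes. Timp2, which also takes part in the activation of Mmp2 by Mmp14, was found at 56.6 ± 3.6 FPKM across WT and 63.0 ± 5.7 FPKM across ERβKO mice (mean ± SD). Its log2 fold change was 0.13 (95% confidence interval -0.042 to 0.30). Timp3, which is held in the matrix and inhibits several ADAMTS proteases, had levels of 59.2 ± 6.7 FPKM across WT and 58.5 ± 4.8 FPKM across ERβKO mice (mean ± SD). The log2 fold change was -0.035 (95% confidence interval -0.24 to 0.17), and Syn3, on the other strand, shares 21.3% of the exon length.

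Timp4 was measured at 6.44, 15.2, 10.4, 11.7 and 8.05 FPKM in WT and at 15.1, 17.2, 10.2 and 12.4 FPKM in ERβKO ovaries, which overlapped. The fitted difference was 0.36 ± 0.22 log2 units (SE), with an edgeR adjusted p of 0.398. Summed over the 4 inhibitors, the level was 177.7 ± 36 FPKM across WT and 158.1 ± 14 FPKM across ERβKO mice (mean ± SD). The sum over the 23 Mmp genes was 165.7 ± 12 FPKM and 142.5 ± 12 FPKM, and that over the 19 Adamts genes 78.7 ± 14 FPKM and 90.6 ± 11 FPKM. The ranges of the genotypes overlapped for each of these 3 sums.

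Genes that activate, inhibit or share substrates with these enzymes were described from 3 lists. Of 59 genes, 57 were tested and 2 were called by edgeR, both lower in ERβKO ovaries (against 0.801% of all tested genes in that direction). At an unadjusted p under 0.05, 17 of the 57 (29.8%) differed, 9 higher and 8 lower, against 19.8% of all tested genes (9.81% higher and 10.0% lower), and the median log2 fold change was -0.018. Fbn2, fibrillin-2 of the elastic microfibrils, stood at 10.0, 8.94, 5.19, 9.56 and 7.11 FPKM in WT and at 3.87, 1.97, 2.34 and 2.51 FPKM in ERβKO ovaries. It fell in ERβKO ovaries without overlap, the log2 difference being -1.64 ± 0.23 (SE, adjusted p = 0.0104 in edgeR). Sdc1, syndecan-1, a proteoglycan of the cell surface that is shed by MMPs, was found at 42.3, 32.3, 33.2, 26.3 and 32.8 FPKM in WT and at 17.6, 10.8, 22.6 and 12.3 FPKM in ERβKO ovaries. It fell as well, by -1.09 ± 0.22 in log2 units (SE, edgeR adjusted p = 0.0345), again without overlap. Fbn2 was called in all 9 fits that left out 1 ovary, with adjusted p-values up to 0.0475 in edgeR. Sdc1 was called in 4 of the 9, and not without WT replicate 1 (edgeR adjusted p = 0.0801) or 5 (0.0760), or without ERβKO replicate 1 (0.0589), 2 (0.0972) or 4 (0.106). Without WT replicates 4 and 5 together, neither gene was called (edgeR adjusted p = 0.0628 for Fbn2 and 0.0971 for Sdc1). The luteal markers, lower in 9 of 10 genes with a median log2 fold change of -0.89, moved in the same direction, and their part in these 2 differences was not tested.

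The other genes of the lists that follow by name were chosen after their values were seen. Of the 20 activators and regulators, 19 were tested and Sdc1 was the single call. At an unadjusted p under 0.05 in edgeR, 6 of the 19 (31.6%) differed, 4 higher and 2 lower, against 19.8% of all tested genes. The plasminogen activators Plau and Plat, at the head of the proteolytic cascade that activates several MMPs, had log2 fold changes of -0.25 and -0.18 with edgeR adjusted p-values of 0.411 and 0.675. Reck, a membrane-anchored inhibitor of MMPs, had a log2 fold change of 0.40 (edgeR adjusted p = 0.161). Among 18 tested proteases of other families 0 were called by edgeR and Adam19 by DESeq2, with 2 of the 18 (11.1%) at an unadjusted p under 0.05, below the 19.8% of all tested genes. Of the 20 matrix substrates, Fbn2 was the single edgeR call, and Col4a1, Col4a2 and Fbn2 were called by DESeq2, all 3 lower, against 2.56% of all tested genes in that direction. Acan, encoding the proteoglycan aggrecan that several ADAMTS proteases cleave, had a log2 fold change of 1.34 (edgeR adjusted p = 0.0460), and with a mean of at most 0.999 FPKM it was below the limit for a call. The related fibrillin-1 gene Fbn1 had a log2 fold change of -0.22 (edgeR adjusted p = 0.178), and versican (Vcan), a substrate of Adamts1, one of -0.050 (edgeR adjusted p = 0.896).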

How the data were processed

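Each library was made from the whole ovary of a single mouse (5 WT, 4 ERβKO), using stranded preparation of polyadenylated RNA. The deposited table holds counts without normalization, which the authors made with STAR on GRCm38 and featureCounts. The deposited FPKM values were calculated by the authors with StringTie, scaled to gene length and mapped fragments. The deposited TPM values, also from StringTie, were read as another scale of levels, and the authors' coverage values (signal) were not used. CASAVA, Trim Galore and bcl2fastq 2.20.0.422 are named in the submitters' processing notes. Other versions and the strand setting of the counting are not given in the sources used here.

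Counts were filtered with filterByExpr, normalized by TMM and tested with edgeR 4.0.16 (quasi-likelihood, Benjamini-Hochberg adjustment over 16722 genes) in R 4.3.3. The thresholds were those of the study's methods, and its tool, DESeq2 1.42.0, was an alternative, as was limma 3.58.1 on log2 FPKM. Libraries held 12353740 to 18717510 counts, and the common biological coefficient of variation was 0.179. Single values were compared by two-sided exact permutation over the 126 splits of 9 ovaries. P-values set the difference between genotypes against the variation between these mice. Tables and motifs were handled in Python 3.11.15 with pandas 2.3.3. The tests were tried on simulated counts. Pairs of libraries within a genotype differed by more than sampling noise.

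Genes named are those called by edgeR or DESeq2, the 2 highest of each class, the 4 TIMPs, Esr2 and called genes of the pathway lists. Others are said to be chosen after their values were seen. The genes, lists and rules were chosen with earlier results of these data known. Overlaps with other genes came from GENCODE M21. Protein sequences were not used here.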

Additional observations from a re-analysis of the deposited data

Results flagged for a closer look

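An ovary far from the others of its genotype was looked for by the ratio of its gap to the range of the group, over the 23 named genes in both genotypes. It was found in 4 of 46 groups, all of them WT, and chance flags about 1 in 20 groups. Adamts1 was at 21.5 FPKM in WT replicate 3, against 5.87 to 6.85 FPKM in the other WT ovaries. Adamtsl2 was at 3.03 FPKM in the same ovary, against 1.31 to 1.67 FPKM. Mmp11 was at 39.8 FPKM in WT replicate 2, against 47.9 to 50.7 FPKM, and Mmp9 was at 2.64 FPKM in WT replicate 1, against 1.26 to 1.59 FPKM. Mmp7 was not among the 23 genes searched. Its ERβKO replicate 2 stood at 8.52 FPKM, against 0.523 to 1.37 FPKM in the other ERβKO ovaries. WT replicate 2 is also the WT ovary that lay nearest to the ERβKO ovaries on the first principal component.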

How the results depend on the processing

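Results were recomputed with DESeq2 and with limma on log2 FPKM (pseudocounts of 1 and 0.1), and in edgeR with the size factors of DESeq2, with upper-quartile scaling, without the filter, with a minimum of 10 counts per library, with a block for the replicate number, without each ovary in turn, and without WT replicates 4 and 5 (libraries numbered below 200). Of the 51 genes, edgeR called 0. DESeq2 called 2 (0 higher, 2 lower: Mmp11 and Adamts6), and the block called 1 (Adamts5, higher, against 0.927% of all genes). With each ovary left out, 0 to 1 were called: Mmp11, lower, without WT replicate 2 or without ERβKO replicate 1, and Adamtsl2, higher, without WT replicate 3. The remaining settings called 0. Of the pathway genes, edgeR called 2 (against 1.72% of all tested genes), DESeq2 5 (4.80%) and the libraries numbered below 200 0 (0.303%). The fits without 1 ovary called between 1 and 6. The count was 1 without WT replicate 1 (0.709% of all genes) or 5 (0.662%), or without ERβKO replicate 2 (0.356%) or 4 (0.472%). It was 6 without WT replicate 3 (2.16%) or without ERβKO replicate 1 (1.5%). The share called over all genes thus moved between these fits as well. All calls among the pathway genes were lower in ERβKO ovaries with all 9 ovaries, whereas up to 4 were higher with 1 ovary left out.

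Over the 23 named genes and 18 alternatives, the log2 fold change kept its direction and its side of the threshold in 379 values of 407, passed the threshold in 8 and changed sign in 20. The sign of Mmp8 turned with DESeq2's size factors (-0.0017), DESeq2 (-0.0093), the replicate block (-0.086) and limma (-0.11 and -0.20 with pseudocounts of 1 and 0.1), that of Mmp9 with limma (-0.019 and -0.025), and that of Adamts14 with the libraries numbered below 200 (-0.12). With each ovary left out the log2 fold change ran from -0.57 to 0.10 for Adamts1, from -0.14 to 0.029 for Adamts9, from -0.094 to 0.16 for Adamts14, from -0.31 to 0.23 for Mmp8 and from -0.076 to 0.022 for Timp3. The cause of these turns was not tested.

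The replicate numbers name separate mice and were not taken as pairs: the correlations of the deviations of same-numbered ovaries were 0.095, 0.13, -0.043 and -0.011, and no ovary correlated best with its own number. With the replicate block the log2 fold change was 0.32 for Adamts10, -0.65 for Adamts6, -0.49 for Mmp11 and -1.27 for Timp1. Genes such as Adamtsl3 and Mmp13 had few counts, which limits the precision of their differences.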
